A study of Mus musculus with 6 samples.

Results

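The genes described here encode the core of the spliceosome and the SR proteins that guide it. They were taken from the deposited expression table by gene symbol, as every protein-coding gene whose symbol starts with Snrp, Snrnp, Srsf or U2af, or names an Sf3a, Sf3b, Lsm or Prpf protein. The rule used symbols and no measured values, and it found 66 of the 25631 genes in the table. Of these, 54 carry the KEGG spliceosome annotation in the table, where 130 genes carry it in all. The 12 others include Lsm10 and Lsm11, which belong to the U7 particle of histone mRNA processing, and Lsm1 of the cytoplasmic decay ring. They also include the 3 members that belong to the minor spliceosome.

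Expression was measured by RNA sequencing of total RNA from mouse oocytes, in 3 control and 3 aminophylline libraries. The oocytes were punctured out of large antral follicles of naturally aged ICR females (14 months) after an injection of equine chorionic gonadotropin, which both groups received. In the study's schedule for these mice, the aminophylline group drank 4 mM aminophylline, a theophylline derivative that blocks phosphodiesterases, for 1 week and then plain water for 3 weeks, while control mice drank water without the drug. The numbers of mice and oocytes in each library, and the day of collection, are not given in the labels or methods used here, so p-values measure the spread between these libraries, which may be technical. The comparison asks which transcripts of the splicing machinery differ between oocytes of treated and untreated aged mice.

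The spliceosome removes introns from pre-mRNA. It is assembled on each intron from small nuclear ribonucleoproteins (snRNPs), each made of a small nuclear RNA, a ring of Sm or LSm proteins and its own set of proteins. The U1 snRNP recognizes the start of the intron, the U2 snRNP with its SF3A and SF3B complexes recognizes the branch point, and U2AF binds the end of the intron. The U4/U6.U5 tri-snRNP then joins and is rearranged into the active enzyme. SR proteins bind exons and recruit these particles. Fully grown oocytes are nearly silent in transcription and live on stored mRNA, so an mRNA level in such a cell reflects storage and decay as well as synthesis.

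Library totals recovered from the values ranged from 14112341 reads in control library 2 to 33641283 reads in control library 1, and between 9730 and 10476 genes had an FPKM (fragments relative to transcript length and library total) of at least 1. All 12 oocyte markers checked were expressed, with summed FPKM of 20169 to 27704 in the control libraries and 21227 to 25043 in the aminophylline libraries. Gdf9 was at 1518 FPKM in control library 1 and at 2845 to 3663 in the others. Zp3, Nlrp5, Mos and Figla were also lowest in control library 1, while the other oocyte markers were lowest elsewhere, and none was highest in it. Control library 1 stood apart by macrophage markers. Their sum was 270 FPKM there and 83.7 to 105 in the other libraries (197 and 3.91 to 5.76 without C1qb, which was high in all), 11 of the 14 markers were highest there, and Lyz2, at 66.4 FPKM in it, was at 0 to 0.573 elsewhere. Of 12 granulosa and cumulus markers, the sum was 215 to 278 FPKM in control and 163 to 179 in aminophylline libraries. Serpine2 held most of each sum, and without it the sums were 16.3 to 23.7 and 17.6 to 23.6. Of the 12, 4 reached 1 FPKM in 3 libraries. Besides Serpine2 these were Cyp19a1 (7.37 to 15.7 FPKM over the 6 libraries), Nr5a2 (4.43 to 8.53) and Inha (0.417 to 1.66). Foxl2, Amh and Fshr were at 0 to 0.27 throughout. None of the markers of theca and stroma or of erythrocytes reached 1 FPKM in 3 libraries, and endothelial markers summed to 5.69 to 8.98 FPKM. Whether other cells contributed to the levels below was not tested, and in such bulk samples fewer cells of a type and less RNA per cell cannot be told apart.

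Transcripts of the splicing machinery covered nearly the whole range of expression. Of the 66 members, 17 had a mean FPKM over the 6 libraries of 100 or more, 22 lay between 10 and 100, 18 between 1 and 10, and 9 under 1. Lsm3, a subunit of the LSm rings, was the highest, with 997, 975 and 692 FPKM in control libraries 1 to 3 and 936, 996 and 892 in aminophylline libraries 1 to 3. Srsf12, an SR protein gene, was the lowest, with a mean of 0.0232. Summed over the members, FPKM ranged from 6007 to 7868 in the control group and from 7574 to 8192 in the aminophylline group, and these ranges overlapped. As a share of all FPKM in a library the sum was 11.8 to 13.4 per 1000 in control and 13.7 to 14.5 per 1000 in aminophylline libraries, which did not overlap. The small ring proteins led the sum, and the large helicases and scaffolds were low. The share of the Sm genes was 3.69 to 4.74 per 1000 in control and 4.73 to 5.25 in aminophylline libraries. That of the LSm genes was 3.65 to 4.54 and 4.27 to 4.62, and both shares overlapped between the groups. The share of the U2, SF3 and U2AF genes, 2.31 to 2.37 and 2.57 to 2.73, did not. These shares were not compared with those of other gene sets. Across the 66 members the level was lower for a greater transcript length by which the authors had divided (393 to 8770 bases), with Pearson r = -0.717 and Spearman rho = -0.743 on log2 scales, against -0.298 and -0.293 over the 10340 genes tested. Level and length are not independent here, since each FPKM was divided by that length.

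**Figure D1:**
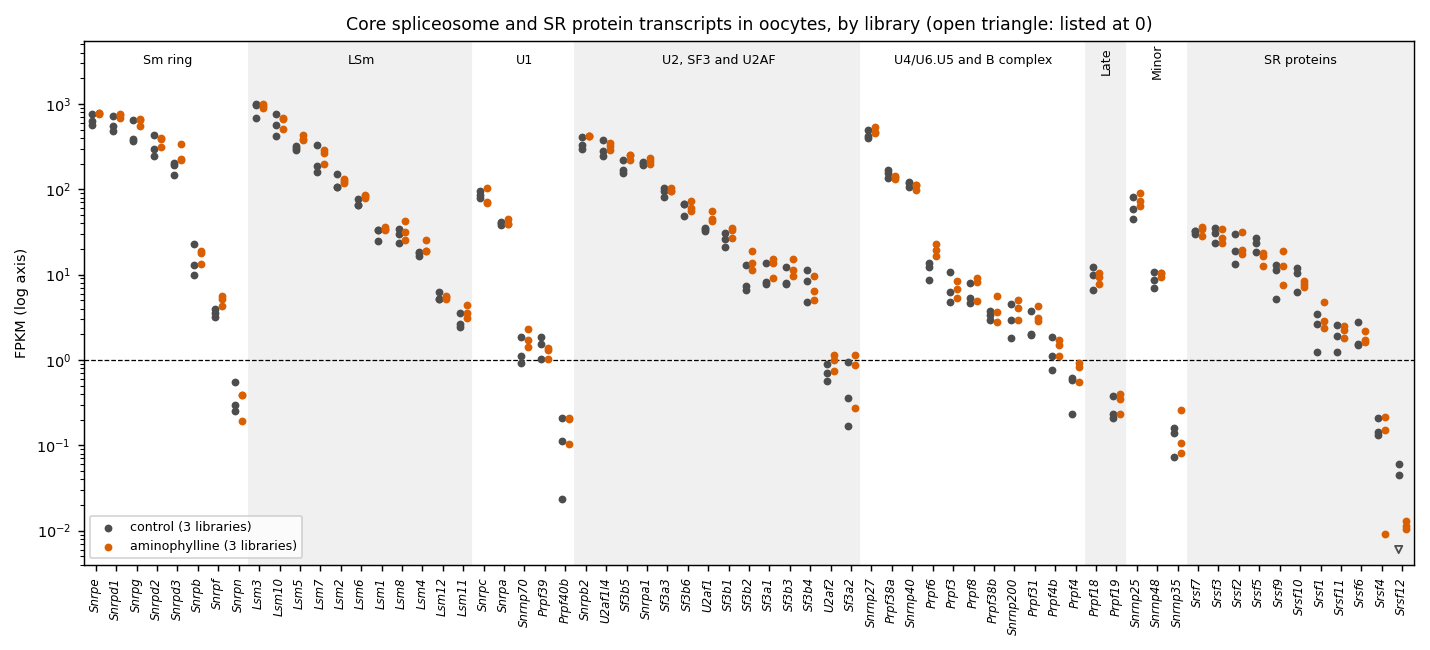
FPKM of 65 of the members (log axis) in the 3 control libraries (grey) and the 3 aminophylline libraries (orange), grouped by role and ordered by mean level, with 1 FPKM as a dashed line. Levels run from Lsm3 at a mean of 915 FPKM to Srsf12 at 0.0232, and the points of both groups lie close together for most members.

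The comparison between the groups used limma's moderated test on log2(FPKM + 1), fitted on all genes that reached 1 FPKM in 3 or more of the 6 libraries. No member passed it after Benjamini-Hochberg adjustment: 0 of the 57 members tested had an adjusted p under 0.05, and the smallest adjusted p was 0.661. The same was true of all genes, with 0 of 10340 (0.0%). At an unadjusted p under 0.05 by the same limma fit, 7 members were higher in the aminophylline group, 12.3% of those tested against 4.41% of all genes, and 1 member was lower, 1.75% against 2.84% of all genes. Of the 7, Prpf6 and Sf3b2 were also past a fold of 1.5 (3.51%, where 2.08% of all genes were higher and 1.13% lower by that rule). The median log2 fold change was 0.186 over the members and 0.095 over all genes, and 45 of 57 members (78.9%) were above 0 where 64.8% of all genes were. With median centring before the limma fit, which brought the median of all genes to 0.013, 2 members were higher (Prpf6 and Sf3b2), 3.51% against 2.72% of all genes, and 1 was lower (Srsf5), 1.75% against 4.85%. The share of higher members was then near that of all genes. The members' median was 0.104, and 70.2% of them were above 0 where 52.1% of all genes were.

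The groups did not overlap, with each aminophylline library above each control library, in 10 members (17.5%, against 7.51% of all genes), and with each below in 1 member (1.75%, against 4.96%). Among the 10 were Prpf6, U2af1, Snrpd3, Lsm5, Sf3b5, Snrpf, Snrpb2, Lsm6 and Lsm4, and the 1 was Srsf5. The count of 7 higher members depended on single libraries, and the share of all genes called higher moved with them. Without control library 1, which held the macrophage markers, the count was 4 (7.02%, against 2.07% of all genes). Without control library 2, which had the fewest reads, it was 12 (21.1%, against 8.37%). It was 4 without aminophylline library 1 (7.02%, against 5.23%) and 1 without aminophylline library 2 (1.75%, against 1.96%), so that in the last of these fits the members' share was no higher than that of all genes. It was 9 without control library 3 (15.8%, against 11.8%) and 5 without aminophylline library 3 (8.77%, against 2.41%). The 1 lower member was lost when either control library 1 or 3 or either aminophylline library 1 or 3 was left out, where 1.5% to 2.47% of all genes were lower. When limma was fitted with the library number as a replicate block, 9 members were higher (15.8%, against 9.88% of all genes), 1 was lower (against 4.3%), and none had an adjusted p under 0.05 (against 0.455% of all genes).

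**Figure D2:**
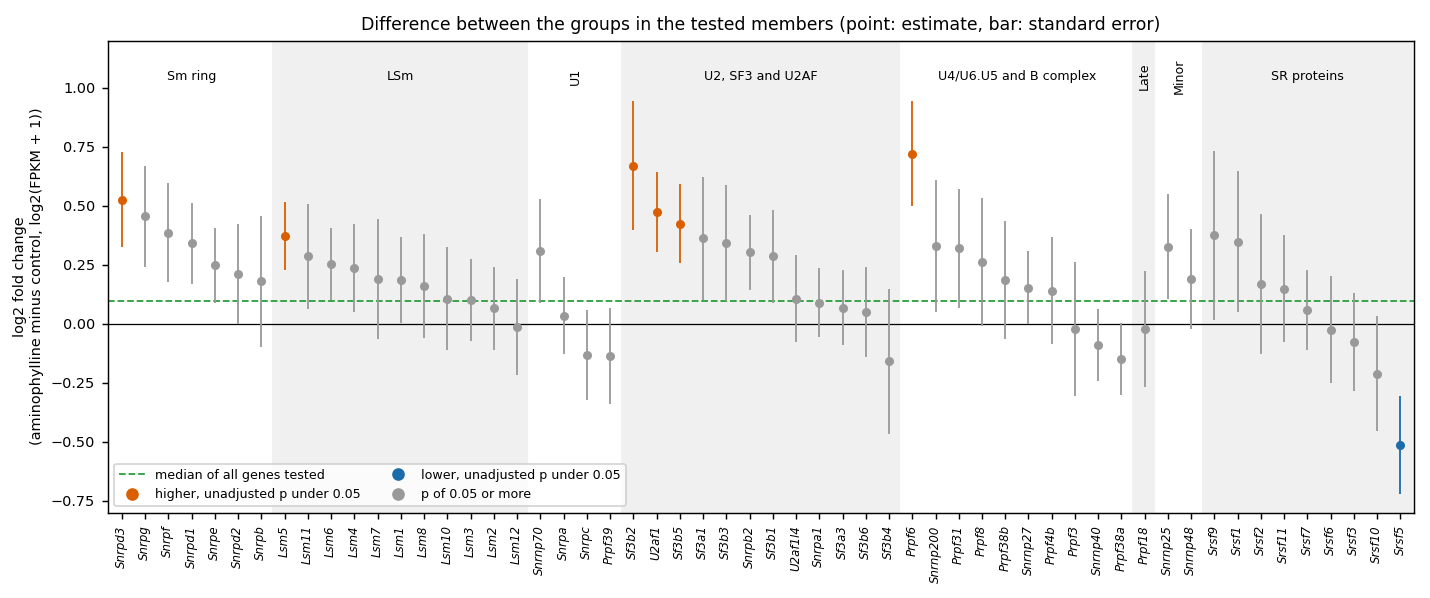
Log2 fold change of aminophylline over control on the log2(FPKM + 1) scale (point) with its standard error (bar) for 56 of the members tested, grouped by role, from limma. Members with an unadjusted p under 0.05 are orange (6 higher) or blue (Srsf5, lower), 44 of the 56 points lie above 0, and the dashed line is the median of all genes, 0.095.

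Prpf6 showed the largest difference. It encodes the U5 snRNP protein that bridges U5 to U4/U6 in the tri-snRNP, and lies on chr2:181601319-181655661 (GRCm38, plus strand). Its FPKM was 8.54, 12.3 and 13.7 in control libraries 1 to 3 and 16.4, 19.3 and 22.7 in aminophylline libraries 1 to 3, so that the lowest treated library was above the highest control. The means were 11.5 ± 2.66 and 19.5 ± 3.15 FPKM (SD, n = 3 libraries each), from 532 to 2124 reads a library. On the log2 scale the difference was 0.72 (standard error 0.222, limma unadjusted p = 0.00768, adjusted p = 0.661). Of the 8 members with an unadjusted p under 0.05 it was the 1 that kept this in all 18 other fits of the data, with log2 fold changes of 0.54 to 0.85 and p from 0.000929 to 0.0392. The block gave its smallest adjusted p, 0.0899.

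U2af1, the small subunit of U2AF that reads the AG at the end of the intron (chr17:31647081-31659148, GRCm38, minus strand), was at 32.5, 35 and 34.2 FPKM in control libraries 1 to 3 and at 42.5, 55.7 and 45.2 in aminophylline libraries 1 to 3. The control values were close together and all below the treated values. On the log2 scale the difference was 0.47 (standard error 0.170, limma unadjusted p = 0.0175, adjusted p = 0.682). Without aminophylline library 2, the highest of them, the difference was 0.36 and the limma unadjusted p was 0.105. Annotated copies of at least 95% identity exist for U2af1 at 2 other loci, both pseudogenes, so that its reads could have been shared with them.

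**Figure D3:**
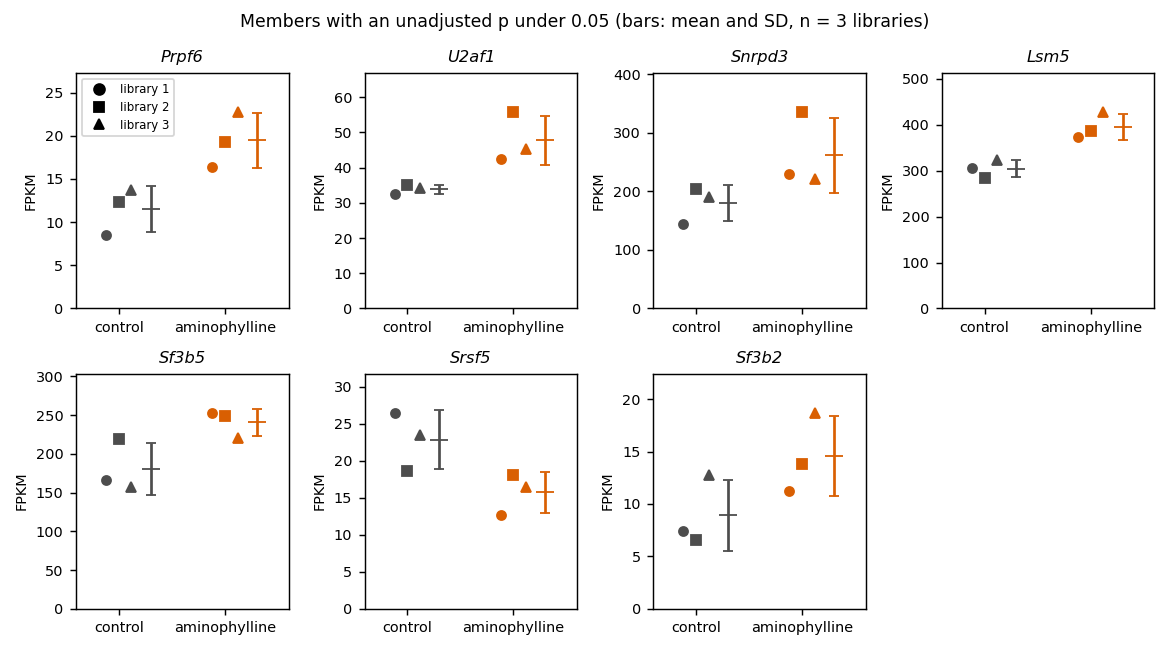
FPKM of 7 members with an unadjusted p under 0.05 in each control (grey) and aminophylline (orange) library, with the mean and SD of 3 libraries beside the points, on axes that start at 0. Of these, Srsf5 alone is lower with aminophylline, and Sf3b2 is the 1 gene of the 7 whose groups overlap, at 12.8 FPKM in control library 3 and 11.2 in aminophylline library 1.

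The stretches upstream of these genes are shown because these members differed between the groups at the unadjusted threshold, so that their motifs can be set side by side. RefSeq promoter windows (GRCm38.p6) were found for 55 of the 66 members, and 5 of the 8 genes had a stretch of 150 bases before the annotated start that lay outside the gene by all but a few bases. Capitals mark GGGCGG and CCGGAAG on either strand, the letters that Sp1-like factors and ETS factors are known to bind.
Prpf6 (chr2:181601169-181601318, plus strand): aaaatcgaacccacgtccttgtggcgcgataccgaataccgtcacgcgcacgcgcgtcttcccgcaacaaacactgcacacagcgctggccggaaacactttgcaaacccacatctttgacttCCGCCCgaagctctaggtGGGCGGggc
Snrpd3 (chr10:75517892-75518041, plus strand): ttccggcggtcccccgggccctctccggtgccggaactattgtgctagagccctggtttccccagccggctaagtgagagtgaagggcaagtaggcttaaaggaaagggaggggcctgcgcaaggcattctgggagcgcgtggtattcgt
Lsm5 (chr6:56704700-56704849, minus strand): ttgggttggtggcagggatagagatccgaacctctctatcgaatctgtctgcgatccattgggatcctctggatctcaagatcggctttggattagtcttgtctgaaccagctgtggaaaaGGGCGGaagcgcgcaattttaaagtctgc
Sf3b2 (chr19:5295458-5295607, minus strand): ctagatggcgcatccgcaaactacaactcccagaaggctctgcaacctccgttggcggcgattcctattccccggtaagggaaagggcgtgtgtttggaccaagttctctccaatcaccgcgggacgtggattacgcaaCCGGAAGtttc
Srsf5 (chr12:80945349-80945498, plus strand): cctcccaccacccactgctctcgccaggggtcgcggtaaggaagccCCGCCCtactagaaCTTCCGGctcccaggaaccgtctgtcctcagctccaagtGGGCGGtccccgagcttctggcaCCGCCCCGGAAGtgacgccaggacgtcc

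Over the 250 bases before the start, GGGCGG was present on either strand in 36 of 55 members (65.5%), in 52.1% of the tested genes with a window and in 32.9% of all 27025 genes with one. CCGGAAG was present in 18 of 55 members (32.7%), in 13.9% of tested genes and in 7.05% of all. In Srsf5 the 2 motifs share bases at the last match. The letters were in Srsf5, the lower gene, as well as in higher genes. Snrpd3 had neither in the 150 bases shown, but GGGCGG was present in its 250 bases. The cyclic AMP response element TGACGTCA was found in 2 members, Snrpg and Snrpa (3.64%, against 2.57% of tested genes and 1.62% of all). TATAAA was found in 5 of 55 members (9.09%, against 7.66% and 13%) and CCAAT in 20 (36.4%, against 37.4% and 34.5%). These are matches of letters and were not tested as binding sites.

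The Sm proteins form the ring around the snRNAs of the U1, U2, U4 and U5 particles, and their transcripts were far from equal. Snrpe was at 567 to 767 FPKM in control and 755 to 781 in aminophylline libraries. Snrpf, whose protein sits in the same ring, was at 3.22 to 3.91 and 4.23 to 5.61, and Snrpe was 139 to 238 times Snrpf within a library. Of the 861 exonic bases of Snrpf in the GENCODE annotation, 735 overlap genes on the opposite strand, among them exons of Ccdc38, and whether reads were counted by strand is not given in the sources used here. Snrpb, which encodes the ring protein SmB, was at 10 to 22.9 FPKM in control and 13.3 to 18.7 in aminophylline libraries. Snrpn, its neuronal paralog, failed the filter with 17 to 75 reads a library.

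All 7 Sm ring members tested had a log2 fold change above 0, from 0.18 to 0.53 with a median of 0.341, and 1 had an unadjusted p under 0.05. For this and each role below, the values over all genes are 64.8% above 0, a median of 0.095 and 4.41% higher at that threshold. The 1 called was Snrpd3 (chr10:75518042-75535440, GRCm38, plus strand), at 145, 205 and 190 FPKM in control libraries 1 to 3 and 229, 335 and 221 in aminophylline libraries 1 to 3. Aminophylline library 2 was the highest by over 100 FPKM, and the groups did not overlap. On the log2 scale the difference was 0.53 (standard error 0.201, limma unadjusted p = 0.0239, adjusted p = 0.682), and 232 exonic bases of Snrpd3 overlap the opposite-strand gene Gucd1. Leaving out control library 1 or aminophylline library 2 ended the call. Snrpf did not overlap between groups either (log2 fold change 0.39, standard error 0.211, limma unadjusted p = 0.0945).

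Snrpg and Snrpd1, named here after their values were seen, gained an unadjusted p under 0.05 with the replicate block. Snrpg was at 386, 649 and 369 FPKM in control and 653, 662 and 551 in aminophylline libraries, so that control library 2 lay among the treated libraries. Snrpg has 3 annotated copies of at least 95% identity, 2 of them pseudogenes, so that its reads could have been shared with them. Its limma unadjusted p was 0.0579, and 0.0121 with the block (adjusted p = 0.228). Without control library 2 it was 0.000499 (adjusted p = 0.0892), and without any other single library it was 0.0475 to 0.192. Snrpd1 was at 547, 719 and 487 FPKM in control and 740, 771 and 683 in aminophylline libraries, with the same library out of place. Its limma unadjusted p was 0.0739, and 0.0424 with the block (adjusted p = 0.329). Without control library 2 it was 0.00395 (adjusted p = 0.133), and without any other single library it was 0.0967 to 0.222. Leaving out control library 2 removed the control value that lay among the treated ones. In that fit 8.37% of all genes were higher.

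The LSm proteins form a similar ring. Lsm2 to Lsm8 bind U6, and with Lsm1 in place of Lsm8 the ring acts in mRNA decay in the cytoplasm. Lsm3, shared by both rings, was at 692 to 997 FPKM over the 6 libraries. Lsm8, the subunit that sets the nuclear ring apart, was at 23.4 to 42.2, and Lsm1, its cytoplasmic counterpart, at 24.8 to 36.6. The levels of these last 2 overlapped. Lsm11 was the lowest LSm gene, at 2.4 to 4.43 FPKM, while its U7 partner Lsm10 was at 421 to 758.

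All 11 LSm genes were tested, 10 had a log2 fold change above 0 (median 0.186), and 1 had an unadjusted p under 0.05. Lsm5 (chr6:56701063-56704699, GRCm38, minus strand) was at 306, 285 and 323 FPKM in control libraries 1 to 3 and 373, 386 and 427 in aminophylline libraries 1 to 3, without overlap. Between the groups its log2 value differed by 0.37 (standard error 0.145, limma unadjusted p = 0.0263, adjusted p = 0.682), and leaving out any of the 3 aminophylline libraries ended the call. Lsm5 has 2 annotated pseudogene copies of at least 95% identity. Lsm6 (65.6 to 76.9 FPKM in control, 78.9 to 86.2 in aminophylline) and Lsm4 (16.5 to 18.5 and 19.1 to 25.2) also did not overlap, with limma unadjusted p of 0.129 and 0.232.

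Among U1 genes, Snrpc, whose protein helps U1 hold the start of the intron, was the highest at 79.5 to 95 FPKM in control and 68.1 to 103 in aminophylline libraries. Snrnp70, the U1-70K scaffold, was at 0.912 to 1.84 and 1.43 to 2.28. Snrpc has 3 annotated pseudogene copies. Of the 5 U1 genes tested, 3 were above 0 and 2 below. Prpf40b, a U1-associated factor, failed the filter with 3 to 25 reads a library.

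The U2, SF3 and U2AF genes held 3 of the 7 higher members, with 11 of 12 tested genes above 0 (91.7%, against 64.8% of all genes) and a median log2 fold change of 0.295 (0.095 over all genes, of which 4.41% were higher). Snrpb2, the U2-B″ protein and the highest of the set, was at 405, 331 and 298 FPKM in control libraries 1 to 3 and 425, 423 and 418 in aminophylline libraries 1 to 3. The treated libraries were within a few FPKM of each other and above all controls (log2 fold change 0.30, standard error 0.158, limma unadjusted p = 0.081). Sf3b5 (chr10:13008450-13009183, GRCm38), a small SF3B subunit, was at 166, 219 and 157 FPKM in control and 253, 249 and 221 in aminophylline libraries. The gap between control library 2 and aminophylline library 3 was small but no values crossed. Between the groups its log2 value differed by 0.43 (standard error 0.169, limma unadjusted p = 0.0283, adjusted p = 0.682). Leaving out control library 1 or 3 or aminophylline library 1 or 2 ended the call.

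Sf3b2 (chr19:5273921-5295457, GRCm38, minus strand), an SF3B subunit that contacts the intron near the branch point, was at 7.42, 6.53 and 12.8 FPKM in control and 11.2, 13.8 and 18.7 in aminophylline libraries. Library 3 was the highest in both groups, and the groups overlapped. Between the groups its log2 value differed by 0.67 (standard error 0.273, limma unadjusted p = 0.0317, adjusted p = 0.682), and 0.00264 was its unadjusted p with the block. Sf3b1, which contacts the branch-point adenosine, was at 21.1 to 30.6 FPKM in control and 26.7 to 35.6 in aminophylline libraries (limma unadjusted p = 0.174). The call of Sf3b2 ended without control library 1 or 2 or aminophylline library 2 or 3, and 194 of its exonic bases overlap an antisense gene.

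The U2AF genes differed widely in level. U2af2, the large subunit that binds the polypyrimidine tract, failed the filter at 0.572 to 0.905 FPKM in control and 0.738 to 1.15 in aminophylline libraries, with 63 to 221 reads. U2af1 was 37.7 to 57.6 times U2af2 within a library, although the proteins act as a pair. U2af1l4, a paralog of U2af1, was higher than both, at 242 to 380 FPKM in control and 292 to 348 in aminophylline libraries. Of its exonic bases, 1094 overlap other annotated genes, most of them a gene model on the same strand, so that its level is uncertain. Sf3a2, an SF3A subunit, failed the filter with 4 to 59 reads, while its partner Sf3a3 was at 80.8 to 104 FPKM over the 6 libraries.

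In the U4/U6.U5 tri-snRNP and the complex it enters, levels again ran over a wide range. Snrnp27, a small tri-snRNP protein, was at 404 to 496 FPKM in control and 458 to 538 in aminophylline libraries. Prpf8, the scaffold of the active site, was at 4.64 to 7.87 and 4.89 to 9.03, and Snrnp200, the helicase that unwinds U4 from U6, at 1.81 to 4.47 and 2.95 to 5.02. Prpf4, of U4/U6, failed the filter with 19 to 162 reads. Prpf6 was the 1 gene of the 10 tested with an unadjusted p under 0.05, 7 were above 0 and 3 below, and the median was 0.17. Prpf38a and Snrnp40, at 131 to 169 and 97.9 to 120 FPKM, had log2 fold changes of -0.15 and -0.09 (limma unadjusted p = 0.348 and 0.562).

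The remaining particles held no member with an unadjusted p under 0.05. Prpf18, which acts in the second step of splicing, was at 6.54 to 12.2 FPKM in control and 7.7 to 10.5 in aminophylline libraries (log2 fold change -0.02, standard error 0.246, limma unadjusted p = 0.929). Prpf19, the ubiquitin ligase of the complex that bears its name, failed the filter at 0.211 to 0.397 FPKM, from 34 to 77 reads. For the minor spliceosome, which removes a rare class of introns, Snrnp25 was at 45.4 to 80.5 FPKM in control and 64.4 to 91.5 in aminophylline libraries (log2 fold change 0.33, standard error 0.222, limma unadjusted p = 0.168). Snrnp48 was at 6.95 to 10.8 and 9.27 to 10.4, and Snrnp35 failed the filter with 9 to 26 reads.

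The SR protein genes had moderate to low levels. None had a mean above that of Srsf7, at 29.7 to 32.3 FPKM in control and 28.5 to 36 in aminophylline libraries. Of the 9 tested, 5 had log2 fold changes above 0 and 4 below, with a median of 0.06. Srsf5 (chr12:80945495-80950507, GRCm38, plus strand) was the 1 member of the whole set that was lower at an unadjusted p under 0.05. This SR protein gene was at 26.5, 18.6 and 23.5 FPKM in control libraries 1 to 3 and 12.7, 18.1 and 16.5 in aminophylline libraries 1 to 3. The closest values, 18.6 and 18.1, both came from libraries numbered 2. The means were 22.9 ± 3.97 and 15.7 ± 2.8 FPKM (SD, n = 3 each), the difference on the log2 scale was -0.51 (standard error 0.208, limma unadjusted p = 0.0314, adjusted p = 0.682), and Srsf5 has 1 pseudogene copy of at least 95% identity. Its call was lost in 7 of the 18 other fits, among them the correction for length and GC content.

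Srsf1, Srsf2 and Srsf3, the best studied SR proteins, had limma unadjusted p of 0.267, 0.586 and 0.723. Srsf1 was at 1.25 to 3.43 FPKM in control and 2.38 to 4.8 in aminophylline libraries, Srsf2 at 13.2 to 29.9 and 17.6 to 31.5, and Srsf3 at 23.4 to 34.9 and 23.5 to 33.9. Srsf4 failed the filter with 1 to 30 reads. Srsf12 also failed it, with 0, 2 and 6 reads in control libraries 1 to 3 and 1 read in each aminophylline library, and a count of 0 in control library 1 allows up to 0.0283 FPKM at 3 reads, by counting error only.

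Libraries of the same group differed from each other by transcript length, in the members and in all genes. Of the 15 tested members with transcripts under 1000 bases, 9 were highest among the controls in control library 2, and 11 were lowest in control library 3. Of the 28 with 2000 bases or more, 21 were highest in control library 3 and 18 lowest in control library 2. In the aminophylline group, 22 of these 28 were highest in library 3 and 19 lowest in library 1. Of the 15 short members, 9 (60%) were highest in aminophylline library 2, where 36% of all tested genes under 1000 bases were, and 26.7% in aminophylline library 1, where 45.2% were, a difference that was not tested. Across the 57 members the deviation of control library 2 from its group mean had Pearson r = -0.53 with log2 length (-0.396 over all 10340 genes), and that of control library 3 had r = 0.588 (0.442). These describe genes that share libraries, and the deviations in a group sum to 0. The length classes were chosen after the values were seen.

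**Figure D4:**
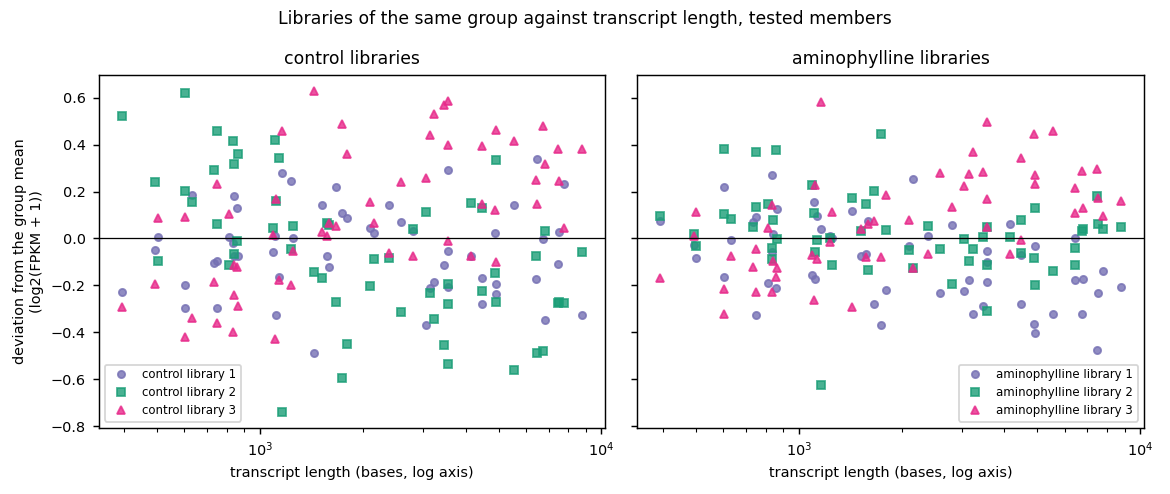
Deviation of each library from its group mean on the log2(FPKM + 1) scale against transcript length (log axis) for 56 of the tested members, for the control libraries (left) and the aminophylline libraries (right). Control library 3 and aminophylline library 3 lie mostly above 0 for long transcripts, while control library 2 lies above 0 for short ones.

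This length pattern lies within both groups, and its part in the differences between them was examined by a loess correction of each library for length and GC content. With it, 11 members were higher at an unadjusted p under 0.05 in limma (19.3%, against 5.25% of the 9507 genes with length and GC content) and 0 were lower (against 2.57%). Of the 57, 51 were above 0 (89.5%, against 65.7%), and the median log2 fold change was 0.194 (0.095 over the 9507 genes). Without the correction, 14 of the 15 members under 1000 bases were above 0 (median 0.248), as were 31 of the 42 with 1000 bases or more (median 0.174). Over all genes tested 64.8% were above 0 (median 0.095), and these were not split by length, so short members were not compared with other short genes.

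Other genes of the splicing pathway were taken from lists made from knowledge of the complexes, with 173 genes in the table and 147 tested. By limma, 0 had an adjusted p under 0.05, 11 were higher (7.48%, against 4.41% of all genes) and 3 lower (2.04%, against 2.84%) at an unadjusted p under 0.05, and 120 of 147 (81.6%, against 64.8%) had a log2 fold change above 0, with a median of 0.192. With the replicate block 21 were higher (14.3%, against 9.88%) and 7 lower (4.76%, against 4.3%). With median centring 7 were higher (4.76%, against 2.72%) and 7 lower (4.76%, against 4.85%), so that the lower shares were near those of all genes in both. For each list below, in limma without block or centring, 4.41% of all genes were higher and 2.84% lower at an unadjusted p under 0.05. The Prpf19 complex and other catalytic factors had 4 higher and 1 lower of 51 tested. Ctnnbl1, a protein bound to this complex, was at 32.5, 42.2 and 53.5 FPKM in control and 65.3, 56.6 and 77.6 in aminophylline libraries, without overlap (log2 fold change 0.64, standard error 0.209, limma unadjusted p = 0.0105, adjusted p = 0.664). Puf60, a U2AF-related factor, and Rbm17, which also acts at the end of the intron, had log2 fold changes of 0.80 and 0.67, and the groups overlapped for both.

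The exon junction and TREX list had 2 higher of 17 tested, Eif4a3, the core of the exon junction complex (log2 fold change 0.41), and Thoc6 of the THO complex (0.40). Neither overlapped between the groups. Among 8 other minor spliceosome genes, Rnpc3, a U11/U12 protein, was at 16.5, 9.73 and 14.6 FPKM in control and 8.34, 8.4 and 9.05 in aminophylline libraries. All treated values were below all controls (log2 fold change -0.58, standard error 0.225, limma unadjusted p = 0.0259, adjusted p = 0.682). Of 19 snRNP assembly genes 2 were higher, Sart3 (0.62), which recycles U6, and Ruvbl2 (0.36). Of 7 partners of the cytoplasmic LSm ring 1 was, Lsm14b (0.68). The groups overlapped for Sart3 and Lsm14b but not for Ruvbl2. The limma unadjusted p was 0.0245 for Sart3, 0.0307 for Ruvbl2 and 0.0181 for Lsm14b, each with adjusted p = 0.682.

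Of 23 kinases of SR proteins and SR-related genes, 2 were higher and 1 lower. Clk2, at 1.77 to 4.74 FPKM in control and 3.77 to 8.6 in aminophylline libraries, had a log2 fold change of 0.74, and Srrm2 one of 0.60, with overlap for both. Clk4, a kinase of the same family, was at 4.04, 3.32 and 5.01 FPKM in control and 2.26, 2.57 and 3 in aminophylline libraries, without overlap (log2 fold change -0.50, standard error 0.221, limma unadjusted p = 0.0454, adjusted p = 0.684). None of the 22 hnRNP genes tested had an unadjusted p under 0.05 in limma. With the replicate block 2 of the 22 were higher and 1 was lower, where 9.88% of all genes were higher and 4.3% lower. The median log2 fold change of the hnRNP genes was 0.228 (0.095 over all genes).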

How the data were processed

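Oocyte RNA was sequenced in 3 control and 3 aminophylline libraries (libraries made with the VAHTS Universal V6 kit). The authors deposited FPKM values per gene, fragments divided by transcript length and library total. The submitters' processing notes name the builds GRCm38 and mm10. The aligner, the counter, the annotation and the use of strand are not given in the sources used here. Libraries were grouped by their labels. Library totals, transcript lengths and whole reads were recovered from ratios of the deposited FPKM values, and reads were whole within 0.001 for 99.996% of the 22583 genes detected in 2 or more libraries. Totals were 14112341 to 33641283 reads, so low members rest on few reads, most of all in control library 2.

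Groups were compared with limma 3.58.1 (R 4.3.3, moderated, with a trend, two-sided) on log2(FPKM + 1), which understates the change of low genes, for genes that reached 1 FPKM in 3 or more of 6 libraries, with Benjamini-Hochberg adjustment over the 10340 genes tested. The labels number the libraries of each group from 1 to 3. They do not say whether libraries of equal number share anything, and the study used unpaired tests. Pairing by number was therefore an assumption. For each number, deviations from the group means correlated between groups at 0.138, 0.14 and 0.552, and the fit with this replicate block was an alternative, as were those in the closing section. The code was tested on simulated data. Coordinates are from RefSeq (GRCm38.p6), copies (blastn 2.17.0, at least 95% identity over at least 50% of the transcript) and overlaps from GENCODE M21.

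Named members are those with an unadjusted p under 0.05, those whose groups did not overlap, those that failed the filter, and in each role the highest, the lowest and the one with the smallest p. Up to 3 genes of each other list were named by the smallest p under 0.05. Any other member named was chosen after its values were seen. Of the members, 1 is counted but its values are not reported here. The members and lists were chosen with earlier results of these data known.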

Additional observations from a re-analysis of the deposited data

How the results depend on the processing

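No member had an adjusted p under 0.05 in any of the 18 other fits, all limma or a linear model, and the smallest was 0.0892, without control library 2. The 8 members with an unadjusted p under 0.05 kept their direction in all 144 refits and lost the threshold in 40. The members' median log2 fold change stayed between 0.104 and 0.24. The count of 7 higher members (12.3%, against 4.41% of all genes) moved to 2 with median centring (3.51%, against 2.72%), 11 with the length and GC correction (19.3%, against 5.25%) and 16 with that correction and the replicate block (28.1%, against 10.9%). The 1 lower member was lost (0) in both of these corrections and in the unmoderated model. Leaving out one library gave 1 to 12 higher and 0 to 1 lower members, while 1.96% to 11.8% of all genes were higher and 1.22% to 7.27% lower. The replicate block gave 9 higher (15.8%, against 9.88% of all genes) and 1 lower (1.75%, against 4.3%). Beyond Snrpg and Snrpd1 it changed no member's call at the unadjusted threshold. The 11 higher genes of the other lists (7.48%, against 4.41% of all genes) moved to 3 with a common sum (2.04%, against 2.72%), 7 with median centring (4.76%, against 2.72%), 2 in the unmoderated model (1.36%, against 3.94%), 21 with the replicate block (14.3%, against 9.88%), 26 with library weights (17.7%, against 13.5%), 19 with the length and GC correction (12.9%, against 5.25%) and 37 with that and the block (25.2%, against 10.9%). The 3 lower ones (2.04%, against 2.84%) moved to 5 with quantile normalization (3.4%, against 5.11%), 7 with median centring (4.76%, against 4.85%), 7 with the block (4.76%, against 4.3%), 8 with weights (5.44%, against 5.93%) and 0 with the length and GC correction (against 2.57%). Leaving out one library gave from 2 higher genes of these lists without aminophylline library 3 (1.36%, against 2.41% of all genes) to 31 without control library 3 (21.1%, against 11.8%). The lower genes ranged from 0, where 1.22% to 2.47% of all genes were lower, to 11 without control library 2. Those 11 were 7.48%, near the 7.27% of all genes. The cause was not tested. With 3 libraries a group, an exact permutation test of 1 gene cannot go below p = 0.1. The 9 members that failed the filter, which is on FPKM, were not tested in the main fit. Their reads ranged from 0 to 6 a library for Srsf12 to 63 to 221 for U2af2.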
